A study of Mus musculus with 4 samples.

Results

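Hic1 (hypermethylated in cancer 1, ENSMUSG00000043099.4) lies on the minus strand of mouse chromosome 11, from 75164565 to 75169519 in GENCODE release M21 on GRCm38. The positions described here were selected by their place, as every row of the authors' deposited tables inside the gene or within 50000 bp of it. They were 400 of 269406 listed positions and 2 of 3389 regions. Hic1 itself was picked because its region has the largest negative area score of the deposited regions, so its differences are given as a description and were not tested again.

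Whole-genome bisulfite sequencing was done on FACS-sorted microglia, the resident macrophages of the brain. The 2 WT samples and 2 IRF8KO samples came from untreated C57BL/6J mice of 3 months. IRF8KO mice lack IRF8, a transcription factor of myeloid cells; the labels do not describe the allele, and they do not say whether replicates are separate animals. Bisulfite treatment converts unmethylated cytosine and spares methylated cytosine, so a methylation level is the share of unconverted reads, from 0 to 1. The authors deposited a two-group comparison, with a fitted level and a dispersion per group. It also gives the difference in level, its standard error (SE), a p-value and a false discovery rate (FDR). No file gives a value per sample or a read count. Beyond the deposited dispersions, spread between replicates is therefore unknown here, as is depth. The SE of a difference is the deposited one. Column names carry only the numbers of the groups, and which is WT is not stated. The groups are called the first and the second, and every difference is the first minus the second. The identity of the sorted cells could not be checked against marker genes with these tables.

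HIC1 is a transcriptional repressor with a BTB domain, through which it pairs and recruits corepressors, and C2H2 zinc fingers that bind DNA. It is known as a target of p53 and as a gene whose CpG-dense body and promoters gain methylation in tumours. The gene has alternative first exons that join a large second exon, and that second exon encodes most of the protein. CpG-dense sequence is usually unmethylated in normal cells, while most other CpGs of the genome are methylated.

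Listed positions within Hic1 formed 1 block of 2118 bp over the second exon and the intron before it. The sequences that frame this block are printed 5′ to 3′ on GRCm38, with every CpG in capitals: they show the parts of Hic1 with the most called positions and the largest difference, a start without listed positions, and the neighbouring stretch with the opposite difference. The first stretch (chr11:75166947-75167246, minus strand, coding) is the 300-base window of the second exon with the most positions under an FDR of 0.05. It holds 36 CpGs, and of the 78 positions listed there 70 were below an FDR of 0.05. The next (chr11:75166211-75166330, minus strand, coding) surrounds the largest difference and holds only 4 CpGs. The last of Hic1 (chr11:75168153-75168402, minus strand) is the 250 bases before the RefSeq start of the short transcript, with 22 CpGs and no listed position. The Smg6 stretch (chr11:75158601-75158750, plus strand) is intronic and carries a run of alternating C and G followed by a run of alternating C and A.
Hic1 second exon, most positions past the threshold: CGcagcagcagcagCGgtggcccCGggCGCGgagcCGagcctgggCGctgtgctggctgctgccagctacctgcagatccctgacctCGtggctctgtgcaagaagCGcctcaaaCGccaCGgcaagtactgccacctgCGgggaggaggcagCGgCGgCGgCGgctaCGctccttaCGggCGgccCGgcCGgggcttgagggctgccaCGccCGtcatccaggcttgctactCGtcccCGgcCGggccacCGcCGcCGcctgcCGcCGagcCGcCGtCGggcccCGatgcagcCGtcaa
Hic1 second exon, largest difference: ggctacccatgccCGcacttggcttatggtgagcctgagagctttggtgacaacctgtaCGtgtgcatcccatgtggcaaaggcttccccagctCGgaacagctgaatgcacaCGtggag
Hic1, before the short transcript: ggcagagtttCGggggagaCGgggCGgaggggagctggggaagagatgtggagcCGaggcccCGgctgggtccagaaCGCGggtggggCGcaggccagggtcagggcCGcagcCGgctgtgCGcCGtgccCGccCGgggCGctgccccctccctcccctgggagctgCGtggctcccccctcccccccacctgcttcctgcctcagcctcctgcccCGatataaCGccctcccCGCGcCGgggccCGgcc
Smg6 intron: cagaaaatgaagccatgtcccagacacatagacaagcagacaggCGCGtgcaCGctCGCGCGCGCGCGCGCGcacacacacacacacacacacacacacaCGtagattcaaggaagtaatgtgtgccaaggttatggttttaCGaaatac

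Within Hic1, the coding sequence of the second exon was less methylated in the first group than in the second. In the authors' deposited table the region spans 75165976 to 75167806 (1831 bp) and 316 cytosines. That table gives it mean levels of 0.180 (first group) and 0.516 (second group), a difference of -0.336. At single positions of the region the level in the first group ran from 0.124 to 0.284 (median 0.172), and in the second group from 0.399 to 0.612 (median 0.503). Over the listed positions of the region the ranges of the group levels thus did not overlap. Those positions share fitted values and were listed for this contrast, so the gap says nothing about spread between replicates. All 316 differences were negative, between -0.392 and -0.274, with SEs from 0.0761 to 0.102. Over all listed positions of the series, 38.1% were lower in the first group. This contrast chose the gene, so nothing is read from that comparison.

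An FDR under 0.05 was reached at 132 of the 316 positions (41.8%). Over all listed positions of the series 18.7% reached it. Across the other regions with listed positions the median share was 40%, so the share in Hic1 was ordinary for a region. Again nothing is read from this, since the contrast chose the gene. The lowest FDR in the region was 0.0137, so no Hic1 position was under 0.01. Many positions sat close to the threshold. In the authors' deposited table the FDR just inside was 0.04998 and the one just outside 0.05034, and 130 further positions were between 0.05 and 0.1. Neighbouring positions share fitted values: the 316 positions carried 170 distinct differences, and 288 of them were the C and G of 144 CpGs.

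All 132 positions under an FDR of 0.05 lay in coding sequence of the second exon. They fell into 4 stretches, joining positions no more than 100 bp apart. The longest, from 75166823 to 75167505, held 108 of them among 136 listed positions, and these 108 had mean levels of 0.148 (first group) and 0.482 (second group). The stretch from 75166141 to 75166318 held 16 of 17, and the means of these 16 were 0.190 and 0.565. The remaining stretches held 5 of 19 and 3 of 12. None of the 48 listed positions in the intron of the long transcript reached an FDR of 0.05. Of these, 16 lie in the first exon of the short transcript. Inside the region, the 28 intron positions had a mean difference (-0.330) near that of the coding positions (-0.336). Their mean SE was larger, 0.0907 against 0.0850. Whether exon and intron differ was not tested.

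Both groups followed the same contour along the gene, with the second group higher throughout the block. Neighbouring positions share fitted levels, so the contour is not made of independent measurements. Distances here run from the start of the long GENCODE transcript in the direction of transcription. Between 1700 and 1899 bp, in the intron, the 100-bp means of the first group were 0.275 to 0.278 and those of the second 0.602 to 0.604. Near 2400 bp, inside the second exon, they reached 0.133 and 0.470. They rose again to 0.219 and 0.593 between 3100 and 3199 bp. Toward the 3′ end, between 3500 and 3599 bp, they came down to 0.124 and 0.385. Over all 100-bp bins of the block the mean difference ran from -0.383 to -0.237.

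**Figure D1:**
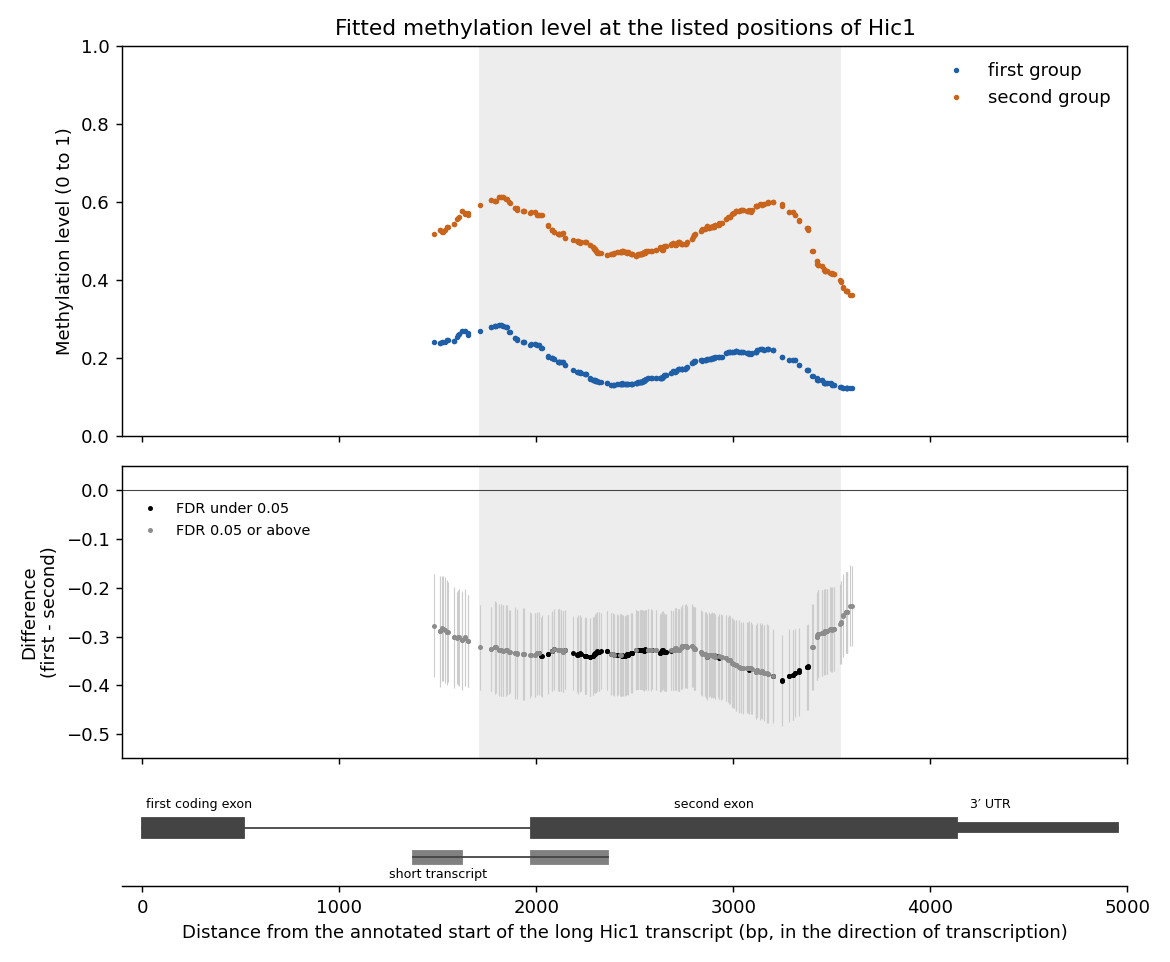
Fitted methylation level (top) and difference with deposited SE bars (middle) at the 348 listed Hic1 positions, against distance in bp from the start of the long transcript; shading marks the deposited region, black points have an FDR under 0.05, and boxes at the bottom are exons. The second group lies above the first at every listed position, and the black points lie over the second exon.

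The largest difference was at 75166271, in the stretch printed above that holds 4 CpGs in 120 bases. In the authors' deposited table its levels were 0.202 and 0.594, a difference of -0.392 (SE 0.0920, FDR 0.0223). The lowest FDR belonged to 75167294, with levels of 0.161 and 0.496 and an SE of 0.0761 in the same table. That position is not on a CpG of the reference. Of the 316 positions, 288 were on reference CpGs, which is every C and G of the 144 CpGs in the region. The other 28 were off them, and 16 of these lay 1 bp beside a CpG. All 288 CpG positions had dispersion values of their own, whereas 24 of the 28 others carried a pair of dispersion values that 36.9% of all listed positions share. Among CpG positions 116 (40.3%) had an FDR under 0.05 and the mean difference was -0.336. Among the others it was 16 of 28 (57.1%) and -0.334.

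By exon and promoter, the difference was placed as follows. The coding part of the second exon (75165383 to 75167544) held 300 listed positions and all 132 under the FDR threshold. The region covered 1569 bp of it (72.6%), and a further 262 bp of intron. The last 536 bp of coding sequence before the stop codon held no listed position, although the reference has 38 CpGs there. The 3′ untranslated region, with 29 CpGs, held none. The first exon of the short transcript (75167894 to 75168146) held 16 listed positions, with mean levels of 0.248 and 0.542 and none under an FDR of 0.05.

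Upstream of that exon no Hic1 position was listed. The promoters, taken from 1000 bp before to 100 bp after each GENCODE start, held 0 listed positions, against 108 CpGs at the short transcript and 50 at the long one. The first coding exon (75169003 to 75169519) held 0, against 45 CpGs. The listed block ended at 75168036, which is 110 bp inside the short transcript. RefSeq starts the long transcript at 75170255, 2219 bp from that end, and its promoters held 0 as well. With promoters widened to 2000 bp before and 500 bp after, 38 listed positions fell in them, all in the part inside the short transcript.

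Whether the difference continues past the listed block cannot be read from these tables. A position was listed only with a posterior of at least 0.95, and positions not listed have no value here. At 75168036 the authors' deposited table gives levels of 0.240 and 0.517, a difference of -0.278 with an SE of 0.105 and a posterior of 0.954. At the other end, 75165919, it gives 0.123 and 0.360, a difference of -0.237 with an SE of 0.0825 and a posterior of 0.951. Row numbers in that table follow position, and each number was taken to stand for a tested position. Across the listed block they spanned 354 positions, of which 348 were listed. Over the series 0.63% of row numbers up to the last were listed. Between 75168036 and 75196383 the row numbers skip 1893 tested positions, near the 1740 C and G of CpGs in the reference. That stretch holds the Hic1 promoters and first coding exon, and all of Ovca2, Dph1, 1700016P03Rik, Mir212 and Mir132, which were named after the values were seen.

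The region next to Hic1 went the other way. It lies in an intron of Smg6, which encodes an endonuclease of nonsense-mediated mRNA decay and, in GENCODE, ends 117 bp from Hic1 on the opposite strand. The authors' deposited table places it at 75158470 to 75158862 (393 bp, 27 cytosines), with levels of 0.743 (first group) and 0.194 (second group), a difference of 0.549. It overlaps no exon of GENCODE and lies 5703 bp past the GENCODE 3′ end of Hic1. RefSeq also has Hic1 transcripts that reach 75161377, nearer to the Smg6 region. All 27 positions had an FDR under 0.05, from 1.02e-07 to 0.00182, with SEs from 0.0798 to 0.110. Of the other regions with listed positions, 92.1% had a smaller share under it. The 27 positions carried only 5 distinct differences. Thus the smaller region held the lower FDRs, at a difference that was larger at a similar SE. Its level in the second group (0.194) was close to that of the first group in Hic1 (0.180).

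Of the other listed positions in the window, none had an FDR under 0.05. Smg6 held 15 more, all higher in the first group. At 6 of them, 75116406 to 75116440, the first group had levels of 0.553 to 0.604 and the second of 0.179 to 0.181, with SEs from 0.135 to 0.156. At 9 others, 75140878 to 75141418, the differences were 0.272 to 0.323, and 7 of these positions were off the reference CpGs. Rtn4rl1, which encodes a Nogo receptor-like protein of neurons, held 10 positions in an intron, each lower in the first group, at differences of -0.308 to -0.257. Of the 400 positions, 358 were thus lower in the first group, 348 of them inside Hic1, and 42 higher, all in Smg6. The listed positions nearest the limits of the window were 75116406 and 75208122, and the nearest ones outside were 75111177 and 75248377.

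**Figure D2:**
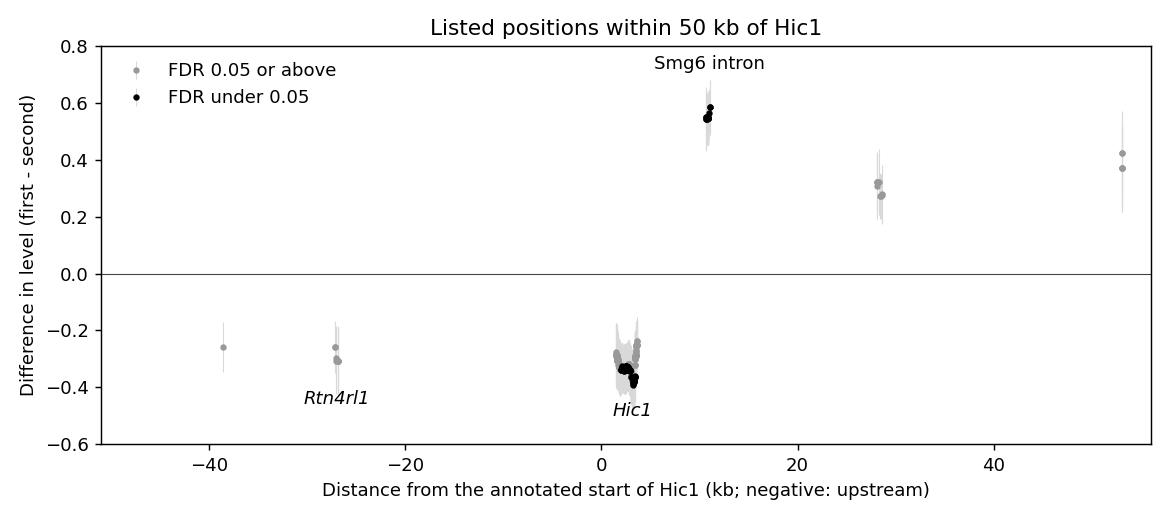
Difference in level (first minus second group, bars are the deposited SE) at the 400 listed positions, against distance in kb from the start of Hic1, upstream to the left. The Hic1 block lies below 0, and the Smg6 intron positions at 0.542 to 0.584 lie above it.

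Set beside the other 3388 regions, the one in Hic1 stood apart in size and not in the size of its difference. It held the most cytosines (316, against 142 in the next) and the most reference CpGs (144, against 65). Its length ranked 12. Its absolute difference of 0.336 was below the median of the others (0.405) and ranked 2950. The area score sums a test statistic over cytosines, and per cytosine it was 3.93, against a median of 3.88 elsewhere. Its CpG density of 7.86 per 100 bp ranked 25, against a median of 1.89, and its G and C content was 67.2%, against 48.2%. The mean SE of its positions (0.0855) was above that of 6.76% of other regions with listed positions, whose median was 0.103. It was 1 of 33 regions (0.974%) with the composition usual for CpG islands, a G and C content over 50%, an observed-to-expected CpG ratio over 0.6 and at least 200 bp. Of these 33, 20 were lower in the first group, against 1581 of all 3389 regions, and this was not tested. These ranks describe the table, from which Hic1 was chosen by area.

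**Figure D3:**
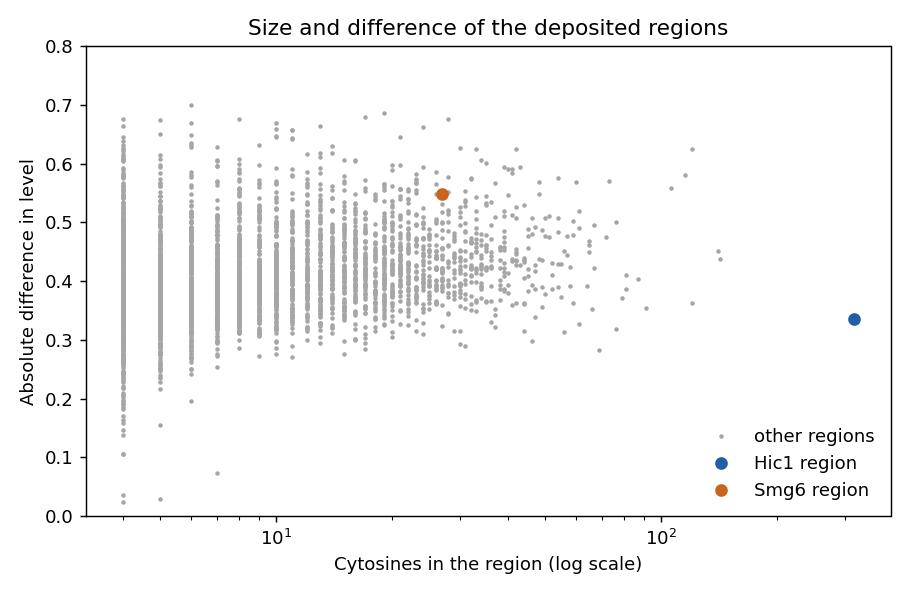
Absolute difference in level against the number of cytosines (log scale) for each of the 3389 deposited regions. The Hic1 region lies farthest right, at 316 cytosines and 0.336, and the Smg6 region at 27 cytosines and 0.549.

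Its group levels were also low for a region of its size. Among the 51 other regions with at least 50 cytosines the higher of the group levels had a median of 0.725, against 0.516 in Hic1. The share of positions with an FDR under 0.05 had a median of 78.8%, against 41.8%. Likeness was measured as the sum of the absolute differences in the 2 group levels, over the 23 such regions that overlap coding sequence of another gene. The nearest was in Nfix, a nuclear factor I transcription factor, where the authors' deposited table gives 0.122 and 0.509 over 81 cytosines (chromosome 8, 84771996 to 84772660). Kcnip3, a calcium-binding protein, followed with 0.176 and 0.614 over 142 cytosines in that table (chromosome 2, 127481835 to 127482599). Gsn, which encodes the actin-severing protein gelsolin, had 0.228 and 0.630 over 87 (chromosome 2, 35282229 to 35282818). Ktn1 (0.202 and 0.773) and Hps4 (0.244 and 0.755) came next in the authors' deposited table, with CpG densities of 1.76 and 1.18 per 100 bp. Nfix, Kcnip3 and Gsn had 5.41, 8.50 and 6.78. Likeness over 2 levels is a description only.

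**Figure D4:**
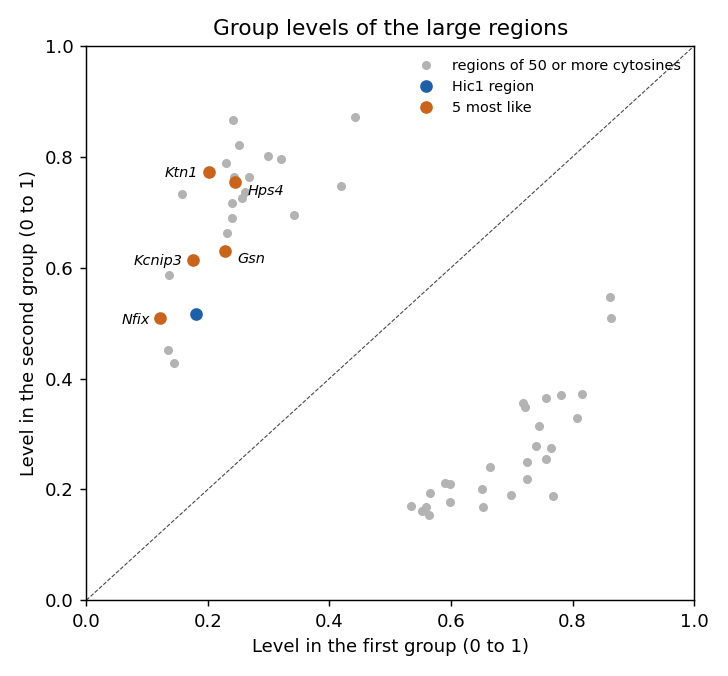
Mean level in the second group against that in the first (both from 0 to 1) for the deposited regions with at least 50 cytosines, with the line of equal levels dashed. Hic1 (0.180, 0.516) lies near Nfix, Kcnip3 and Gsn.

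Sequence elements bound by IRF8 were looked for on both strands. The composite ETS and IRF element was taken as GGAA and GAAA with any 2 bases between them, and the IRF element as GAAA and GAAA with any 2 bases between them; matches can overlap. Both had no match in the Hic1 region, in the Smg6 region or in the Hic1 gene. The 300-base RefSeq promoters searched, of the long and the short Hic1 transcript, had none either. Elsewhere in the window around Hic1 the composite element had 15 matches and the IRF element 11. In windows of 500 bp at the midpoints of all regions, the composite element was present in 15.7% and the IRF element in 9.06%. Among regions lower in the first group, as in Hic1, these were 28.8% and 10.2%, and among higher ones, as in Smg6, 4.26% and 8.02%. Of 300-base RefSeq promoters (GRCm38.p6), 2.72% held the composite element and 3.44% the IRF element. Such promoters are shorter than the 500 bp windows, so the shares are not like for like. No match says only that these letters are not in these windows.

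Genes tied to HIC1 were counted from a list of 25 that holds its activators, its paralog Hic2, protein partners and known targets. Of these, 4 had a deposited region within 10000 bp, against 9.19% of all protein-coding genes. A region lower in the first group was near 1 (background 4.68%), and a region higher in the first group near 3 (background 5.17%). With so few genes, nothing particular to the list is read from these counts. Epha2, a receptor tyrosine kinase gene that HIC1 represses, had the lower one, in an intron (chromosome 4, 141326520 to 141326866), at 0.451 and 0.908 in the authors' deposited table. Tlr2, a receptor for bacterial lipoproteins, had a region 3041 bp outside the gene (chromosome 3, 83844808 to 83845121), at 0.462 and 0.117 in that table. Pias1, a SUMO ligase, had an intronic region of 9 cytosines at 0.760 and 0.253 (chromosome 9, 62936688 to 62936899). Tcf7l2, a Wnt-pathway transcription factor, had 5 intronic regions. Each was higher in the first group, by 0.378 to 0.438 per the authors' deposited table; the gene is 191835 bp long.

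The activators had no region. Trp53, Trp73 and the targets Ccnd1, Cdkn1c, Efna1, Lcn2 and Sox9 had no listed position within 10000 bp, nor had the partner Ctbp1. Sirt1, a deacetylase gene that HIC1 represses, had 2 and Hic2 had 3, none with an FDR under 0.05. In all, 16 of the 25 genes had a listed position within 10000 bp, against 64% of all protein-coding genes, and 8 had one with an FDR under 0.05, against 30.7%. Both counts were near the background and are no result about the list.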

How the data were processed

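Whole-genome bisulfite libraries of 2 WT and 2 IRF8KO microglia samples were compared by the authors. Per the submitters' processing notes, Trim Galore, Bismark and mm10 were used. The tool behind the two-group test and its settings were not given in the sources used here. Runs of neighbouring positions carry identical fitted levels but different dispersions and SEs. Levels were therefore shared between neighbours, and over what distance is unknown. The deposited tables hold fitted levels as fractions, p-values with their FDR, and differences, SEs, statistics and area scores, all per the file headers. Depth is unknown, since no counts are given, so no interval that needs depth was computed. Many neighbouring positions carry identical fitted values, so counts of positions overstate independent evidence. The unused per-sample columns numbered 0.

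Positions were placed on GENCODE M21 and on the GRCm38.p6 sequence with Python 3.11.15, pandas 2.3.3 and pysam 0.24.0. RefSeq promoters came from the same build. Interval counting was tested on simulated data. No test was added; for 2 samples against 2, exact permutation gives a p of 0.333 at best. The members and gene lists were chosen with earlier results of these data known. Genes named are those in the window with listed positions, listed HIC1-related genes with a region, and the 5 most similar coding regions. HIC1-related genes without a region were named after their values were seen, and 1 item is not reported here.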

Additional observations from a re-analysis of the deposited data

How the results depend on the processing

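Of 20 alternatives, 13 left their result within 1.5 times the reported count, inside the exact (Clopper-Pearson) interval of the share or inside the spread over positions. None reversed. Counts have no sign, and every difference in the Hic1 region was negative, so neither could have reversed. The RefSeq starts, the FDR limit of 0.1 and the region alone were chosen after seeing the data. The 159 positions under an FDR of 0.05 in the window became 27 under 0.01 and 26 under 0.001, all in the Smg6 region, and 289 under 0.1. Counted once per CpG they were 82. The share lower in the first group, 89.5% (95% interval 86.1 to 92.3, counting error only), was 83.0% among positions under an FDR of 0.05 and 92.8% within 10000 bp. That interval takes the positions as independent, though neighbours share fitted values and this contrast chose the gene. It served only as a yardstick for the alternatives and measures no spread between samples. Promoters of 2000 bp before to 500 bp after held 38 listed positions, against 0; they reach farther into the gene. The difference in the Hic1 region stayed between -0.339 and -0.334. Its alternatives reuse the same positions, including those kept for an FDR under 0.05, so they are no independent check. HIC1-related genes with a region within 10000 bp numbered 4 (9.19% of all protein-coding genes). Within 50000 bp they were 6 (18.8%), with overlap of the gene 3 (6.71%), and with regions of at least 10 cytosines 3 (5.14%). No paired analysis was possible because neither table separates the replicates. For that reason the planned coverage minimum, replicate block and leaving out of replicates were not run.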
